A study of Drosophila melanogaster with 382 samples.

Results

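HmgD, HmgZ and Dsp1 are 3 genes of Drosophila melanogaster for proteins of the HMG-box class, and they are described here across 25 staged embryos that were cut into slices from head to tail. They are 3 of the 13587 genes with a value in the deposited table, and they were chosen by their measured levels by stage and by the difference between the 2 library kits, which is largest for HmgZ. Levels by stage and by kit are therefore given below as descriptions with no test, and tests are kept for differences between genotypes within 1 kit and for position along the axis.

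HMG boxes bind the minor groove of DNA and bend it sharply, in proteins of the HmgD kind with little sequence preference and in the Sox factors at specific sites. HmgD is the abundant small HMG protein of the early fly embryo, deposited by the mother and known to sit in cleavage-stage chromatin at a time when the somatic linker histone H1 is scarce. HmgZ is its close relative, and the pair lies side by side in the genome. Dsp1 carries a pair of HMG boxes and is known as a corepressor that lets the Dorsal factor silence genes, and as a protein that helps to recruit Polycomb group complexes.

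On the release 6 assembly, with the Ensembl annotation, HmgD (FBgn0004362) spans chromosome 2R, positions 21701458 to 21716727, on the plus strand. HmgZ (FBgn0010228) spans chromosome 2R, positions 21697488 to 21707861, on the minus strand. Their spans overlap by 6404 bases, yet the exons of the genes share 0 bases, so that a fragment within an exon falls in 1 of them. Dsp1 (FBgn0278608) spans chromosome X, positions 16333612 to 16340624, on the plus strand, and no other annotated gene overlaps it. HmgD has 4 annotated transcripts, HmgZ has 4 and Dsp1 has 7.

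The study compared wild-type embryos with embryos in which a maternal patterning or activating factor was lowered or raised. Each slice was sequenced as its own library, and 338 of 382 slices have expression values in FPKM (fragments per kilobase of transcript, scaled to the fragments mapped, a level per unit length). The embryo is the replicate here, each level is the mean over the slices of 1 embryo, and the depth estimated from the lowest FPKM values ran from 247576 to 16622340 fragments per slice.

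The libraries of 7 wild-type Canton-S embryos, 1 each at nuclear cycles 11, 13, 14A, 14B, 14C, 14D and 14E, went through the TruSeq kit with carrier RNA from yeast. So were those of 7 embryos from zld germline clones, whose mothers' germ line lacked Zelda and which carried a His2Av RFP histone marker, with 1 embryo at cycle 11, 3 at cycle 13 and 1 each at 14A, 14B and 14D. The other 11 embryos were made with the SMARTseq2 kit and without carrier. They were bcd RNAi embryos, with 2 at cycle 13 and 2 at cycle 14D, and hb RNAi embryos, with 1 at cycle 13 and 2 at cycle 14D, both from mothers in which the maternal tubulin Gal4 driver expressed a hairpin against bicoid or hunchback. The remaining SMARTseq2 embryos were 2.4x bcd embryos, with 2 at cycle 13 and 2 at cycle 14D, which expressed an eGFP-Bcd fusion. Kit and genotype cannot be told apart in any comparison of wild type with the RNAi or 2.4x bcd lines. The paper took its wild-type data from an earlier dataset, so dataset and genotype cannot be told apart where zld is compared with wild type.

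The perturbed genes were checked first. At cycle 13 the level of bcd was 6.31 and 9.72 FPKM in bcd RNAi embryos and 132 and 156 FPKM in 2.4x bcd embryos. At cycle 14D it was 0.929 and 1.84 FPKM in bcd RNAi, 0.723 and 0.622 FPKM in hb RNAi and 11.3 and 4.21 FPKM in 2.4x bcd, so that bcd RNAi was not the lowest. The level of hb was 4.55 FPKM in the hb RNAi embryo of cycle 13, below all other SMARTseq2 embryos of that cycle, but at cycle 14D the hb RNAi embryos had 29.9 and 19.2 FPKM against 20.1 and 24.4 FPKM in bcd RNAi and 42.5 and 48.4 FPKM in 2.4x bcd embryos. Zelda, listed as vfl, was between 0 and 0.645 FPKM in 6 of 7 zld embryos, while the embryo labelled zld cycle 14B had 5.01 FPKM. In the marker lists, ovarian follicle cell genes summed to at most 7.48 FPKM in any embryo.

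HmgD was among the most abundant mRNAs of the embryo at every stage. In wild type its level was 1639 FPKM at cycle 11, 2006 at cycle 13, 2162 at 14A, 1988 at 14B, 2043 at 14C, 1953 at 14D and 1841 at 14E, with an SD over slices of 101 to 197 FPKM. Cycle 11 was the lowest and 14A the highest in FPKM. In TPM, the second deposited measure summed over a gene's transcripts, 14A was the lowest, at 961, and 14D the highest, at 1449. From 14B to 14E neighbouring stages differed in FPKM by less than the SD over their slices. With 1 wild-type embryo per stage the order has no replicate check, and it depends on the measure. Ranked by FPKM among all genes, HmgD stood between place 8 and place 30 in the 14 TruSeq embryos and between place 15 and place 103 in the 11 SMARTseq2 embryos.

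Among zld embryos the level of HmgD was 1556 FPKM at cycle 11, then 2288, 2687 and 1253 FPKM in the 3 embryos of cycle 13, 2390.2 at 14A, 1819 at 14B and 1738 at 14D. The lowest of these, cycle 13 replicate 3, rested on 5 slices, of which slice 1 had 1861 FPKM and the other 4 had 1074 to 1129 FPKM. In FPKM the zld embryos thus fell on both sides of wild type. In TPM each zld embryo was above the wild-type embryo of its stage, most narrowly at 14D, with 1488 against 1449. The share of all genes with that order in TPM was not counted. Cycle 13 replicate 3, the lowest in FPKM, was the highest zld embryo in TPM, at 1740.

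Among SMARTseq2 embryos HmgD was higher in bcd RNAi than in 2.4x bcd, while the hb RNAi embryos spread over both. It was 2354 and 2404 FPKM in bcd RNAi embryos of cycle 13 and 2959 and 2949 FPKM at cycle 14D. In 2.4x bcd embryos it was 847 and 1123 FPKM at cycle 13 and 1209.7 and 1632 FPKM at cycle 14D. The hb RNAi embryos had 2740.4 FPKM at cycle 13, and 2266 and 1264 FPKM at cycle 14D, so the replicates of that group were far apart.

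HmgZ was at or near 0 in early embryos and higher in late ones. It was listed at 0 FPKM in every slice of the wild-type embryos of cycles 11 and 13, of the zld embryo of cycle 11 and of zld cycle 13 replicate 1. A count of 0 over those embryos allows up to 0.470 FPKM in wild type at cycle 11, 0.462 FPKM at cycle 13, 0.151 FPKM in zld at cycle 11 and 1.95 FPKM in zld cycle 13 replicate 1, taking 3 fragments as the limit and covering counting error alone. HmgZ was at 0 in 91 slices of the series, and Act5C, alphaTub84B, Ef1alpha48D and both other genes were above 0 in each of them.

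From cycle 14A on HmgZ was detected in every wild-type embryo. Its level was 1.35 FPKM at 14A, 17.3 at 14B, 2.05 at 14C, 3.97 at 14D and 66.8 at 14E. The order was not that of the stages, since 14B stood above 14C and 14D. The embryos of 14B and 14E were also the ones with carrier RNA from the yeast T. delbruckii in place of S. cerevisiae. Within the 14E embryo, slices 12 and 13 had S. cerevisiae carrier, and their HmgZ levels of 56.0 and 44.0 FPKM lay inside the range of 32.2 to 135 FPKM of the other 7 slices. Those slices were also the last toward the posterior end, so carrier and position cannot be told apart within that embryo. Its anterior minus posterior log2 difference of HmgZ was 0.90. The part of the carrier was not tested.

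In zld embryos HmgZ reached 3.72 and 1.24 FPKM in the remaining embryos of cycle 13, 26.5 at 14A, 27.6 at 14B and 11.1 at 14D. At 14A, 14B and 14D each zld embryo was above the wild-type embryo of the same stage. How many of all genes had this order was not counted. In the fit of zld against wild type given below, 35.6% of all genes were called. Of those, 87.5% were higher in zld, or 36.4% after median-ratio scaling. The lowest slice of the zld 14A embryo, at 22.6 FPKM, was above the highest slice of the wild-type 14A embryo, at 3.49 FPKM. Slices of 1 embryo are not replicates, and each of these groups has 1 embryo.

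The widest range of HmgZ was within the SMARTseq2 libraries. At cycle 13 its level was 1.17 and 1.02 FPKM in bcd RNAi, 1.002 and 0.809 FPKM in 2.4x bcd and 0.671 FPKM in hb RNAi. At cycle 14D it was 344 and 247 FPKM in bcd RNAi, 252 and 355 FPKM in 2.4x bcd, and 119 and 159 FPKM in hb RNAi. Every embryo of cycle 14D was above every embryo of cycle 13, with means of 246 and 0.935 FPKM that differed 263-fold. Of 6298 genes tested in these embryos, 17.5% had every cycle 14D embryo above every cycle 13 embryo.

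**Figure D1:**
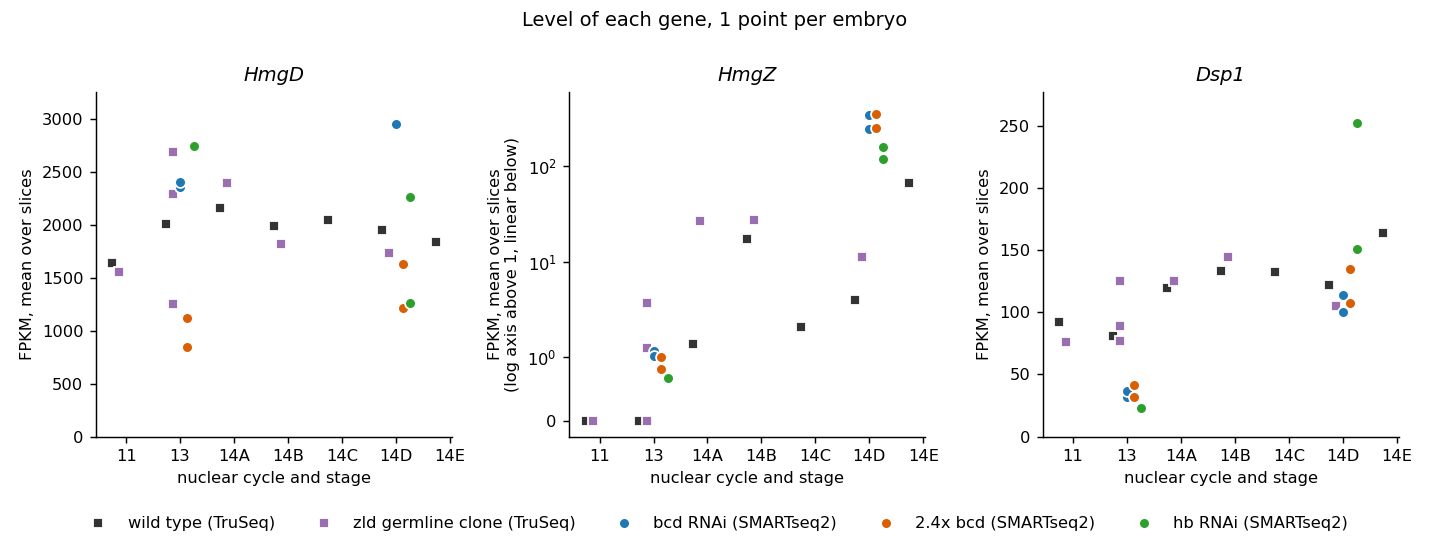
Level of HmgD, HmgZ and Dsp1 in FPKM (vertical axes, mean over the slices of an embryo, with a log axis above 1 FPKM for HmgZ) against nuclear cycle (horizontal axes), with 1 point per embryo, squares for TruSeq and circles for SMARTseq2. HmgD ran from 847 to 2959 FPKM without a common trend on that scale. HmgZ ranged from 0 to 355 FPKM, with its highest level in a SMARTseq2 2.4x bcd embryo of cycle 14D. The 5 SMARTseq2 embryos of cycle 13 had the lowest Dsp1 levels, 22.98 to 41.4 FPKM.

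The kits were set side by side at the 2 stages they share. At cycle 13 the 5 SMARTseq2 embryos had 0.671 to 1.17 FPKM of HmgZ and the 4 TruSeq embryos had 0 to 3.72 FPKM, so the groups overlapped, with means of 0.935 and 1.24 FPKM. The overlap came only through zld embryos. All 5 SMARTseq2 embryos were above the wild-type embryo, where 0 FPKM allows up to 0.462 FPKM. At cycle 14D the 6 SMARTseq2 embryos had 119 to 355 FPKM and the 2 TruSeq embryos had 3.97 and 11.1 FPKM, so that the means differed 32.6-fold. Every SMARTseq2 embryo was above both TruSeq embryos for 36.0% of the 5930 genes tested at cycle 14D. Leaving out the zld embryo, whose level is the higher of the TruSeq pair, raised the fold at cycle 14D to 62.0.

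Some stage-dependent genes differed between the kits at cycle 14D and others did not. The list of blastoderm patterning genes (eve, ftz, h, sna and twi) summed to 522 to 1236 FPKM in the 6 SMARTseq2 embryos of 14D. In the wild-type and zld embryos of 14D it summed to 170 and 91.9 FPKM, so this list did split by kit. The early zygotic gene nullo, which acts when the blastoderm first forms cells, was 228 FPKM in the wild-type embryo of 14D and 93.9 FPKM in the zld embryo, but 1.22 to 7.86 FPKM in the 6 SMARTseq2 embryos of 14D. In the wild-type embryo of 14E, the one with 66.8 FPKM of HmgZ, nullo was 14.2 FPKM. The patterning list of that embryo summed to 313 FPKM, above both TruSeq embryos of 14D and below all 6 SMARTseq2 embryos. The list of early zygotic genes as a whole, with 6 genes, summed to 871 to 2657 FPKM in the SMARTseq2 embryos of 14D, to 3360.0 FPKM in wild type and to 288 FPKM in zld. All 6 SMARTseq2 sums were thus below wild type and above zld, and only through the zld embryo did the list not split by kit. Of its other genes, Sry-alpha was 312 to 1114 FPKM in the SMARTseq2 embryos against 604 and 27.5 FPKM in wild type and zld, and slam overlapped as well. The level of bnk was 8.57 to 362 FPKM in the SMARTseq2 embryos, below the 1359 FPKM of wild type, and overlapped only the zld embryo, at 52.0 FPKM. Since the list's genes differ in this, nullo was chosen here after its values were seen.

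The list of later embryo genes (wg, en, Ubx and Antp) summed to 13.0 to 77.2 FPKM in the 6 SMARTseq2 embryos of 14D and to 0.781 and 5.60 FPKM in the 2 TruSeq embryos of that stage. In the wild-type embryo of 14E, the TruSeq embryo with the highest HmgZ, the list summed to 2.70 FPKM and Antp was 0.032 FPKM. That sum was below the zld embryo of 14D and below all SMARTseq2 embryos of 14D. All 4 later genes were below 1 FPKM in the wild-type embryo of 14D, whereas at most 1 of 4 was in any SMARTseq2 embryo of 14D. At cycle 13, where the HmgZ levels of the kits overlapped only through zld embryos, the same list summed to 0.265 to 1.81 FPKM in SMARTseq2 and 0.079 to 4.74 FPKM in TruSeq. The wild-type embryo had the lowest of these sums, 0.079 FPKM, so this overlap also came only through zld. The part of embryo age in the HmgZ difference was not tested.

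**Figure D2:**
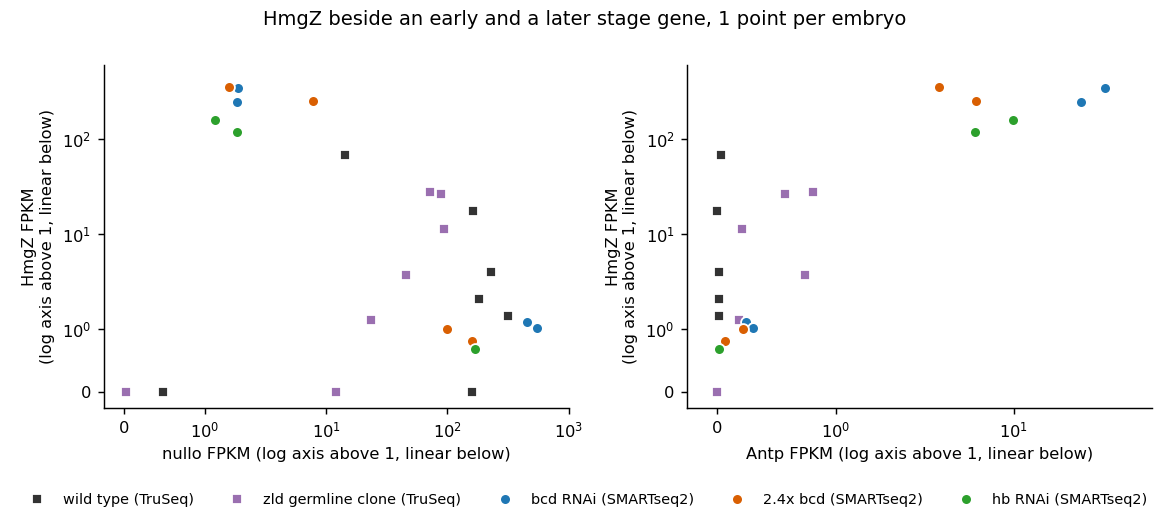
HmgZ level (vertical axes) against the level of nullo (left) and of Antp (right), all in FPKM on axes that are logarithmic above 1 and linear below, with 1 point per embryo, squares for TruSeq and circles for SMARTseq2. The 6 SMARTseq2 embryos of cycle 14D, with HmgZ from 119 to 355 FPKM, had nullo between 1.22 and 7.86 FPKM, and their Antp lay between 3.77 and 32.4 FPKM.

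Dsp1 was expressed at every stage and differed between kits at cycle 13. In wild type it was 92.4 FPKM at cycle 11, 81.1 at cycle 13, 119.7 at 14A, 133 at 14B, 132 at 14C, 122 at 14D and 164 at 14E. Cycles 11 and 13 were the lowest, and neighbours in this order from 14A to 14D differed by less than the SD over their slices, which was 14.6 to 27.0 FPKM. In zld embryos it was 76.45 FPKM at cycle 11, 76.9, 89.2 and 125 FPKM at cycle 13, 125 at 14A, 144 at 14B and 105 at 14D.

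In the SMARTseq2 embryos of cycle 13 Dsp1 was 32.0 and 37.0 FPKM in bcd RNAi, 32.0 and 41.4 FPKM in 2.4x bcd and 22.98 FPKM in hb RNAi. All 5 were below the 4 TruSeq embryos of that cycle, which had 76.9 to 125 FPKM, and the mean was 2.81-fold higher in TruSeq. Every TruSeq embryo was above every SMARTseq2 embryo for 9.2% of the 5878 genes tested at cycle 13. At cycle 14D Dsp1 was 114 and 99.9 FPKM in bcd RNAi, 135 and 108 FPKM in 2.4x bcd, and 151 and 252 FPKM in hb RNAi, and the kits overlapped.

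Within SMARTseq2 every Dsp1 level of cycle 14D was above every level of cycle 13, with a 4.33-fold difference of the means, where 17.5% of 6298 genes had the same order. The ratio of the group means was 3.10 in bcd RNAi, 3.30 in 2.4x bcd and 8.77 in hb RNAi. For HmgD the same ratio was 1.24, 1.44 and 0.644, and embryos of both cycles overlapped. HmgZ and Dsp1 were thus both higher at the later cycle while HmgD, the most abundant of them, had no common direction in FPKM. In TPM, HmgD was higher at cycle 14D in each genotype. It was 1347 and 1404 at cycle 13 and 2183 and 2132 at 14D in bcd RNAi. In 2.4x bcd it was 816 and 1082, then 1219 and 1487, and in hb RNAi 772, then 1772 and 1283. The only hb RNAi embryo of cycle 13 was the highest SMARTseq2 embryo of that cycle in FPKM and the lowest in TPM. BigH1, the embryonic linker histone, ran the other way, with 715 to 1346 FPKM in the SMARTseq2 embryos of cycle 13 and 24.4 to 52.2 FPKM at cycle 14D. In TruSeq it was 264 to 657 FPKM at cycle 13 and 126 to 166 FPKM at cycle 14D.

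Genotypes were compared within SMARTseq2, where kit is held constant. The RNAi mothers had been aged for several weeks and the 2.4x bcd mothers for days, so maternal age and genotype cannot be told apart in comparisons of RNAi with 2.4x bcd. The stage lists also differed between lines. At 14D the later embryo list summed to 77.2 and 48.0 FPKM in bcd RNAi, 28.7 and 36.5 in hb RNAi and 16.7 and 13.0 in 2.4x bcd. At cycle 13 the early zygotic list summed to 1681 and 1438 FPKM in bcd RNAi and 853 and 1375 in 2.4x bcd. The part of embryo age in the genotype differences was not tested. The lines lower or raise maternal Bicoid, the anterior morphogen, or lower Hunchback, a gap factor. The fit was limma on log2(FPKM + 1) over all 11 embryos, with Benjamini-Hochberg adjustment over 6298 genes, all 3 genes passing the filter of 5 FPKM in at least 2 embryos. HmgZ passed it through its cycle 14D embryos.

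HmgD was higher in bcd RNAi than in 2.4x bcd at both cycles. The log2 difference was 1.29 ± 0.28 (SE) at cycle 13, or 2.44-fold, with limma adjusted p = 0.00599 and a 95% interval of 0.67 to 1.90. At cycle 14D it was 1.07 ± 0.28, or 2.10-fold, with limma adjusted p = 0.0214 and an interval of 0.46 to 1.69. Both bcd RNAi embryos were above both 2.4x bcd embryos at each cycle. Of all genes tested, 37.4% were called in either direction at cycle 13 and 23.5% at cycle 14D, so a call was common in these comparisons. After median-ratio scaling of the embryo means the median of all genes at cycle 13 moved from -0.26 to -0.01 and the share of called genes that were higher in bcd RNAi from 34.4% to 52.2%, while HmgD stayed called at both cycles.

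The cycle 14D call for HmgD was lost when bcd RNAi replicate 1, bcd RNAi replicate 2 or 2.4x bcd replicate 1 was left out, with limma adjusted p of 0.105, 0.0977 and 0.161, and without the filter on low values, with limma adjusted p of 0.0712. The cycle 13 call was lost without 2.4x bcd replicate 1, with limma adjusted p of 0.0640, and with kallisto TPM, where the log2 difference was 0.55 and limma adjusted p was 0.0528. The difference between bcd RNAi and 2.4x bcd changed by -0.21 ± 0.39 from cycle 13 to 14D, with an interval of -1.08 to 0.66 and limma adjusted p of 0.834.

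Between bcd RNAi and hb RNAi at cycle 14D the log2 difference of HmgD was 0.80 ± 0.28 with limma adjusted p of 0.110, where 5.48% of genes were called. Between hb RNAi and 2.4x bcd it was 0.27 ± 0.28, with an interval of -0.35 to 0.88 and limma adjusted p of 0.689, where 2.99% of genes were called. The hb RNAi replicates were far apart, at 2266 and 1264 FPKM, and without replicate 1 of hb RNAi the difference from bcd RNAi became 1.22 with limma adjusted p of 0.00362, and without replicate 2 it became 0.38 with limma adjusted p of 0.269.

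HmgZ was lower in both hb RNAi embryos of cycle 14D than in the other 4 embryos, and the test missed the threshold. Against bcd RNAi the log2 difference, bcd RNAi minus hb RNAi, was 1.08 ± 0.28, or 2.11-fold, with an interval of 0.46 to 1.70 and limma adjusted p of 0.0518. Against 2.4x bcd, hb RNAi minus 2.4x bcd was -1.12 ± 0.28, or 2.17-fold, with an interval of -1.74 to -0.50 and limma adjusted p of 0.0636. Both passed after median-ratio scaling of the embryo means, with limma adjusted p of 0.0295 and 0.0465. Over the 6 alternatives other than leaving out embryos the adjusted p ran from 0.0295 to 0.144 for the first and from 0.0464 to 0.0892 for the second.

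The level of HmgZ in bcd RNAi and 2.4x bcd could not be told apart at cycle 14D, and the test at cycle 13 could not decide. The log2 difference was -0.04 ± 0.28 at 14D, with an interval of -0.66 to 0.58 and limma adjusted p of 0.933. At cycle 13 it was 0.14 ± 0.28, with an interval of -0.48 to 0.76 and limma adjusted p of 0.726, where 55 of 105 SMARTseq2 slices were at 0. The embryos compared there had 0.809 to 1.17 FPKM, near the 1 FPKM added before the log, which leaves little room for a call.

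Dsp1 did not pass the test in any of these comparisons. The difference nearest to the threshold was bcd RNAi minus hb RNAi at cycle 14D, -0.86 ± 0.27 on the log2 scale with an interval of -1.47 to -0.26 and limma adjusted p of 0.0883. The hb RNAi minus 2.4x bcd difference was 0.69 ± 0.27 with limma adjusted p of 0.224. Replicate 2 of hb RNAi had 252 FPKM, and without replicate 1 the differences were -1.23 and 1.06 with limma adjusted p of 0.00617 and 0.0370. Without replicate 2 they were -0.50 and 0.32 with limma adjusted p of 0.213 and 0.408. Between bcd RNAi and 2.4x bcd the difference was -0.17 ± 0.27 at 14D and -0.08 ± 0.27 at cycle 13, with intervals of -0.78 to 0.43 and -0.68 to 0.53.

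**Figure D3:**
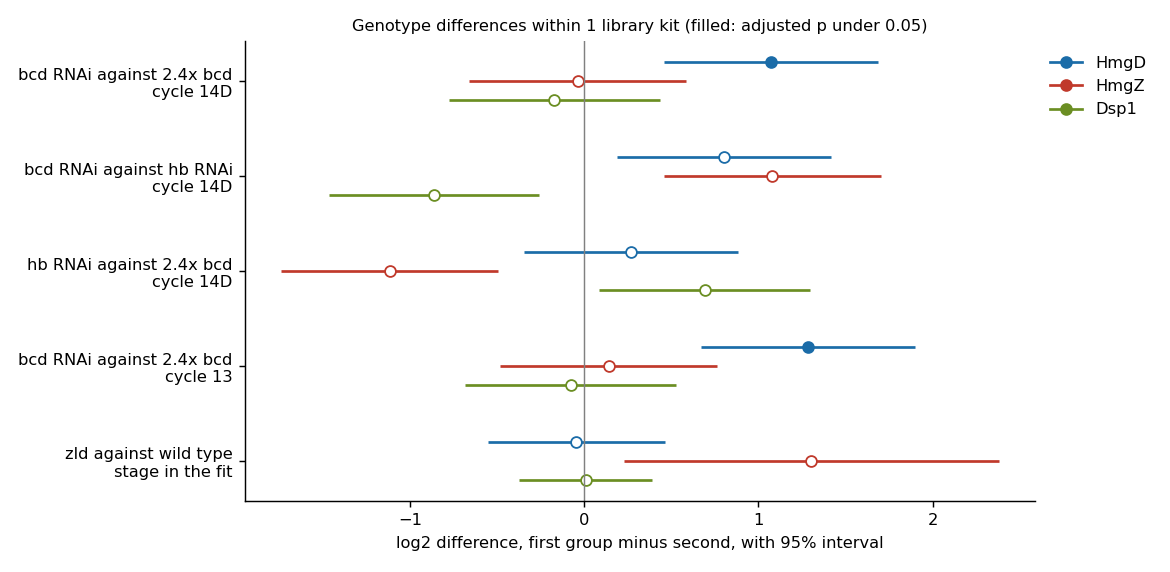
Log2 differences of HmgD, HmgZ and Dsp1 between genotypes (horizontal axis, first group minus second, points with 95% intervals from limma) for the 4 comparisons within SMARTseq2 and for zld against wild type within TruSeq (vertical axis). HmgD passed the threshold between bcd RNAi and 2.4x bcd at both cycles (1.29 and 1.07, filled points), and HmgZ stood at 1.08 and -1.12 in the 2 comparisons with hb RNAi without passing.

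The zld embryos were compared with wild type within TruSeq, with stage in the fit. The wild-type data came from an earlier dataset, so dataset and genotype cannot be told apart here. T. delbruckii carrier was used only in wild type, at 14B and in part at 14E. Zelda is the maternal factor that opens early zygotic enhancers, and the comparison asks how each gene was expressed without it. The log2 difference of HmgZ was 1.305 ± 0.49, or 2.47-fold higher in zld, with an interval of 0.23 to 2.38 and limma adjusted p of 0.0578, where 35.6% of genes were called. HmgZ passed the filter here through 5 of 14 embryos. Fitted to the stages 14A, 14B and 14D alone, the difference was 1.82 with limma adjusted p of 0.0123. Without the embryo labelled zld 14B, in which vfl was 5.01 FPKM, it was 1.45 with limma adjusted p of 0.0920. Without the 14A embryo of wild type or of zld it was 0.81, with limma adjusted p of 0.211 and 0.212.

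HmgD differed by -0.05 ± 0.23 between zld and wild type, with an interval of -0.56 to 0.46 and limma adjusted p of 0.890. Dsp1 differed by 0.01 ± 0.17, with an interval of -0.38 to 0.39 and limma adjusted p of 0.982. The median of all 6129 genes was 0.35 in this comparison and 87.5% of called genes were higher in zld. After median-ratio scaling the median was -0.12, 36.4% of called genes were higher in zld, and the differences of HmgD, Dsp1 and HmgZ were -0.57, -0.51 and 0.99. With kallisto TPM HmgD turned to 0.45 with limma adjusted p of 0.0184.

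Along the axis none of the 3 genes passed a test over the 22 embryos with enough slices. The log2 difference between the anterior and the posterior of 3 equal parts was 0.02 ± 0.04 for HmgD, 0.24 ± 0.13 for HmgZ and 0.08 ± 0.06 for Dsp1, with limma adjusted p of 0.813, 0.315 and 0.492, where 6.06% of 6522 genes were called. HmgZ was higher in front in 14 embryos and lower in 5, and it was at 0 throughout in the other 3. Between the end parts together and the middle part the differences were -0.03 ± 0.02, -0.06 ± 0.09 and -0.03 ± 0.04, with limma adjusted p of 0.439, 0.796 and 0.802, where 1.95% of genes were called. The intervals for HmgD were -0.07 to 0.11 and -0.07 to 0.01, the narrowest of the 3 genes.

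Single embryos had uneven HmgZ. In hb RNAi replicate 1 of cycle 14D the slices ran from 40.0 to 195 FPKM and the ends were lower than the middle by 0.77 on the log2 scale (-0.77). Hb RNAi replicate 2 had -0.39 for the same difference, the 2.4x bcd embryos had 0.10 and -0.38, and the bcd RNAi embryos had -0.01 and 0.04, so that hb RNAi replicate 2 and 2.4x bcd replicate 2 were alike in this. In the 14D embryos alone, an alternative chosen after seeing the data, the anterior minus posterior difference of HmgZ was 0.31 ± 0.09 with limma adjusted p of 0.107. Dsp1 in hb RNAi replicate 2 was also uneven, with 443 FPKM in slice 2 and 488 FPKM in slice 12 against a mean of 252 FPKM.

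**Figure D4:**
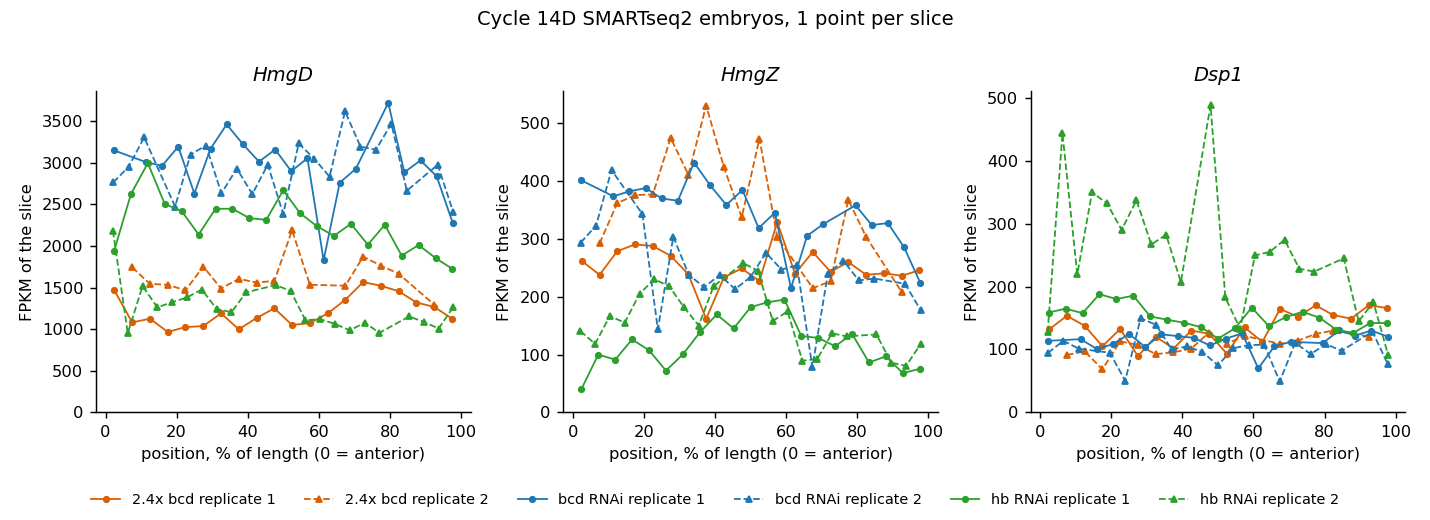
FPKM of HmgD, HmgZ and Dsp1 (vertical axes) in each slice against its position in percent of length from the anterior end (horizontal axes), for the 6 SMARTseq2 embryos of cycle 14D, coloured by genotype with solid lines for replicate 1 and dashed lines for replicate 2. HmgD lies highest in both bcd RNAi embryos, HmgZ has its lowest embryo means in hb RNAi (119 and 159 FPKM), and Dsp1 of hb RNAi replicate 2 peaks at 443 and 488 FPKM.

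Transcript shares were read from the deposited kallisto estimates, as the percentage of a gene's summed TPM (a level per transcript that sums to the same total in every library). For HmgD the transcript RC, which ends at position 21716367, upstream of the end of RA and RB, held 71.0% to 85.6% in TruSeq and 65.7% to 86.4% in SMARTseq2. Within SMARTseq2 the share of the longer RA was 8.05% to 14.5% at cycle 13 and 15.4% to 27.3% at cycle 14D, and how many transcripts of other genes differ in the same way was not tested. The transcript RD, which starts within the span of HmgZ, stayed at or below 0.281%.

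The transcript RD of Dsp1 differed most between kits. It held 15.9% to 35.9% in the 14 TruSeq embryos and 63.8% to 91.2% in 10 of 11 SMARTseq2 embryos. How many transcripts of other genes separate by kit in this way was not tested. RF, which starts from an internal site at position 16336184, held 15.9% to 46.0% in TruSeq and 1.04% to 19.997% in SMARTseq2, where the ranges overlap. The exception for RD was hb RNAi replicate 2 of cycle 14D, in which it held 26.6% and RG held 56.4%, the same embryo in which the level of Dsp1 was 252 FPKM.

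The long transcript RC of Dsp1, which extends to position 16340443, held 0.363% to 1.53% in SMARTseq2 at cycle 13 and 2.18% to 13.5% at 14D, against 1.304% and 1.393% in the TruSeq embryos of 14D. Its share was 2.18% and 2.26% in the bcd RNAi embryos and 5.66% to 13.5% in the other 4 embryos of cycle 14D. HmgZ, at cycle 14D, had most of its TPM in the short transcript RB, with 75.9% to 85.55% in the 6 SMARTseq2 embryos of 14D and 52.3% and 65.2% in the TruSeq embryos of that stage. Kit, genotype and embryo age cannot be told apart in these shares. For RC of Dsp1 and RB of HmgZ too, how many transcripts of other genes differ likewise was not tested.

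**Figure D5:**
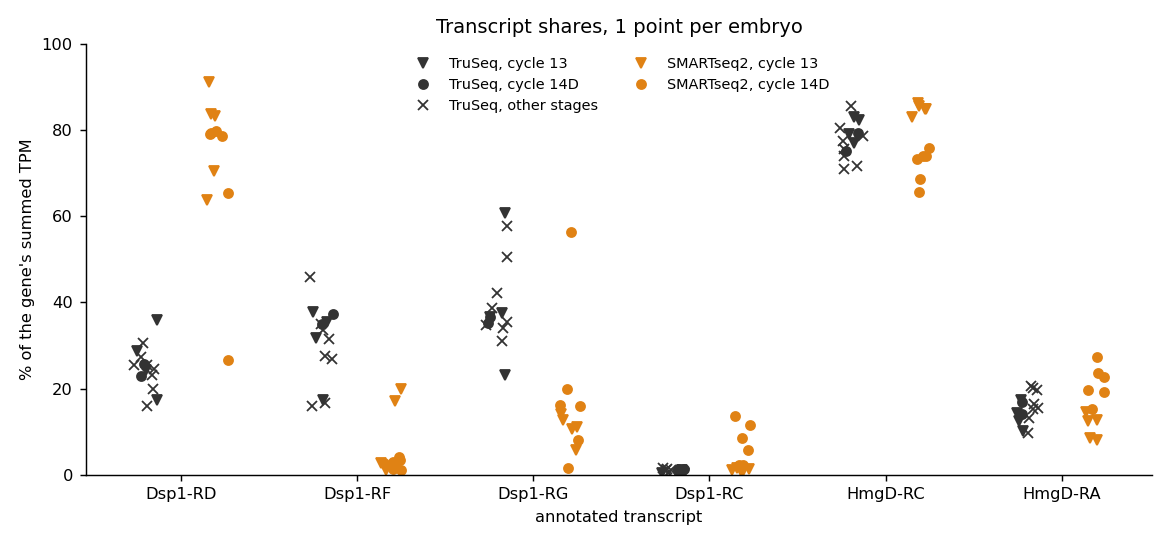
Share of each annotated transcript in its gene's summed TPM (vertical axis, percent) for 4 transcripts of Dsp1 and 2 of HmgD (horizontal axis), with 1 point per embryo, black for TruSeq and orange for SMARTseq2. RD of Dsp1 lies between 15.9% and 35.9% in TruSeq and above 63% in every SMARTseq2 embryo but hb RNAi replicate 2 of cycle 14D, at 26.6%.

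Genes with a level profile most like each member were taken by Pearson correlation of log2(FPKM + 1) over embryos of 1 kit, as a description over points that share stage, depth and kit. Over the 14 TruSeq embryos HmgZ was most like ptc (r = 0.93), Mdr49 (0.92) and rib (0.91), and over the 11 SMARTseq2 embryos most like CG10566, danr and gbb (0.99 or more for each). The first, ptc, encodes the Hedgehog receptor, and gbb encodes a BMP ligand. HmgD was most like CG1927 (0.95), CG5220 (0.93) and CG1789 (0.93) in TruSeq and like chic (0.98), Rpb5 (0.98) and PCNA (0.97) in SMARTseq2, where chic encodes profilin and PCNA the clamp of replicating DNA polymerase.

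Dsp1 was most like CG10417 (0.94), sog (0.91) and TH1 (0.91) in TruSeq, sog being a BMP antagonist of the ventral ectoderm, and like zip (0.99), RhoGEF3 (0.99) and NetA (0.98) in SMARTseq2, zip being the heavy chain of non-muscle myosin. Between the members, r of HmgZ and Dsp1 was 0.79 over the TruSeq and 0.91 over the SMARTseq2 embryos. For HmgD with HmgZ it was 0.16 and 0.14, and for HmgD with Dsp1 it was -0.11 and -0.05.

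The other genes of the same class and pathway were counted in the same fits. Of 17 other HMG-box genes, 9 passed the filter in SMARTseq2. Their calls are read against the shares of all genes called, 37.4% at cycle 13 and 23.5% at cycle 14D for bcd RNAi against 2.4x bcd, and 4 and 2 of the 9 are near those. At cycle 13, bcd RNAi against 2.4x bcd had 1 higher and 3 lower, namely D, a Sox factor of segmentation (log2 difference 1.70), and cic (-1.68), dalao (-1.59) and Ssrp (-1.05). At cycle 14D it had 1 higher, D at 2.02, and 1 lower, cic at -1.27. Ssrp is the HMG-box subunit of the FACT histone chaperone and cic a repressor. The list's medians were 0.15 and -0.21, beside -0.26 and -0.11 over all genes. In zld against wild type 8 were tested, with 4 higher and 0 lower, led by cic at 2.19 and dalao at 1.65. The list median there was 0.62, beside 0.35 over all genes. Of all genes 35.6% were called there, and 87.5% of those were higher, or 36.4% after median-ratio scaling.

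Of the 17 chromatin architecture and assembly genes all were tested. In bcd RNAi against 2.4x bcd, 1 was higher and 6 lower at cycle 13, the largest being Cp190, an insulator protein, at -2.29, and Acf1, a subunit of nucleosome spacing complexes, at -2.10. At cycle 14D, 1 was higher and 2 lower, Acf1 at -1.65, Cp190 at -1.31 and mod(mdg4) at 0.54. The medians of the list were -0.15 and 0.21, and its 7 of 17 calls at cycle 13 are near the 37.4% of all genes, of which 34.4% of the called were higher, or 52.2% after median-ratio scaling. In zld against wild type 7 were higher and 0 lower, led by Chd1 at 1.93, CTCF at 1.80 and Nap1 at 1.56, with a list median of 0.46 beside 0.35 over all genes. Of all genes 35.6% were called there, and 87.5% of the called genes were higher, or 36.4% after median-ratio scaling, so the list's count is near that of all genes.

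Of 18 Polycomb and Dorsal partners of Dsp1, 9 were lower and 1 higher in bcd RNAi than in 2.4x bcd at cycle 13, with a median of -0.99 beside -0.26 over all genes. Of all genes 37.4% were called in that comparison, and 34.4% of those were higher, or 52.2% after median-ratio scaling. The largest of them were Pc at -1.58, Pcl at -1.46 and esc at -1.33, which encode Polycomb group proteins, and the one that was higher was dl, which encodes Dorsal, at 0.85. At cycle 14D 5 were lower and 0 higher, with Sfmbt at -2.81 and Pcl at -1.20, and the median was -0.53, where 23.5% of all genes were called and the median of all genes was -0.11. Dsp1 itself, at -0.08 and -0.17, was not called in either. In zld against wild type 17 partners were tested, with 8 higher and 0 lower, led by Psc at 2.37. Their median was 0.60, beside 0.35 over all genes. Of all genes 35.6% were called there, and 87.5% of those were higher, or 36.4% after median-ratio scaling.

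Along the axis the class had members that did differ where HmgD, HmgZ and Dsp1 were not called. Between anterior and posterior 6.06% of all 6522 genes were called. Of the 9 other HMG-box genes tested, 1 was higher in front and 1 lower, and of the 17 chromatin genes 1 was higher and 1 lower. The Sox genes SoxN and D differed in opposite directions between the anterior and the posterior part, SoxN at 1.17 ± 0.23 (limma adjusted p = 0.00317) and D at -1.47 ± 0.35 (limma adjusted p = 0.0120). In the chromatin list BEAF-32, an insulator protein, was higher in front by 0.75 and BigH1 was lower by 0.62 (-0.62). Of 18 partners of Dsp1, 1 was called, Pc at 0.24 with limma adjusted p of 0.0497, and this count is near the 6.06% of all genes. Between ends and middle, where 1.95% of all genes were called, D (-0.92), cic (-0.29) and BEAF-32 (-0.31) were lower at the ends. BigH1 was higher there, at 0.28, and 0 partners of Dsp1 were called.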

How the data were processed

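Slices of methanol-fixed single embryos were sequenced with TruSeq or SMARTseq2 libraries. The authors mapped reads with STAR 2.3.0.1 to the FlyBase r6.03 genome, discarded reads that could belong to the carrier yeast, and deposited FPKM values per gene from Cufflinks 2.2.1. A second deposited file, named for kallisto (0.42 in the submitters' processing notes), was taken as TPM per transcript because each column sums to the same total. FPKM cover 338 slices and TPM 340. The authors dropped slices with few fly reads or a low mapping rate, and 44 of 382 labelled slices have no FPKM here. FPKM is relative within a library, so a change in total RNA per embryo, or fewer cells against less RNA per cell, cannot be told apart.

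The members, gene lists and tests were chosen with earlier results of these data known. FPKM was averaged over the slices of an embryo, and limma 3.58.1 was run on log2(FPKM + 1) for genes at 5 FPKM or more in at least 2 embryos, two-sided, with trend, Benjamini-Hochberg adjustment and a threshold of 0.05. Fold changes are on that scale and understate changes of low genes. The axis tests used embryos with 6 or more slices and 1 log2 difference per embryo. Named genes were the members, bcd, hb and vfl, per member the 3 genes most correlated with it in each kit among genes reaching 15 FPKM, and up to 4 of the largest called genes of 3 lists. TPM was summed to genes for 30048 of 30385 transcripts matched to the annotation. Depth was estimated from the lowest FPKM values, tested on simulated data. Alternatives were kallisto TPM, pseudocounts of 0.1 and 5, no filter, median-ratio scaling, the replicate number as a block, subsets of embryos or slices, and leaving out each embryo. No sequences were used.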

Additional observations from a re-analysis of the deposited data

Results flagged for a closer look

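A sample was marked where its gap to the nearest other sample was a large part of the range of its group of 4 to 10, over 39 groups of embryos or slices, of which chance marks about 1 in 20. The Dsp1 level of hb RNAi cycle 14D replicate 2, 252 FPKM, stood apart among the 6 SMARTseq2 embryos of that stage, and the same embryo had the unusual transcript shares given above. In zld cycle 13 replicate 3, slice 1 stood above its other slices for HmgD, at 1861 FPKM, and for HmgZ, at 5.48 FPKM. In wild type 14E, slice 3 stood above the others for HmgZ at 135 FPKM, and slice 9 stood below them for Dsp1 at 64.3 FPKM. In wild type 14C, slice 10 stood below the others for Dsp1 at 67.4 FPKM, and in wild type 14A, slice 1 stood below the others for HmgD at 1835 FPKM.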

How the results depend on the processing

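The embryo is the limit on precision, with 1 or 2 per group, and for HmgZ before cycle 14 so is depth. No source says that embryos with the same number were processed together. Deviations of same-numbered embryos correlated between -0.34 and 0.24 over pairs of groups, so the numbers were not taken as pairs. With the replicate block the genes called were 1401 (bcd RNAi against 2.4x bcd, 14D), 234 (bcd RNAi against hb RNAi), 170 (hb RNAi against 2.4x bcd) and 2284 (bcd RNAi against 2.4x bcd, 13), and no call of the 3 genes changed. Outside leave-one-out, 125 of 144 differences of the 3 genes kept their direction and side of the threshold. The cause of the changes below was not tested.

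Directions of differences that had not been called reversed as follows. Under median-ratio scaling, HmgZ became 0.0767 in bcd RNAi against 2.4x bcd at 14D, Dsp1 became 0.1957 in the same comparison at cycle 13 and -0.5065 in zld. With TPM, HmgZ became -0.3872 in bcd RNAi against 2.4x bcd at cycle 13 and 0.0048 between ends and middle, and HmgD became 0.4515 in zld. Dsp1 in zld became -0.0111 with cycle 14 stages alone. In alternatives chosen after seeing the data it became -0.017 without the wild-type embryos with T. delbruckii carrier and -0.0758 with embryos of 6 or more slices, and its ends against middle difference became 0.0437 in 14D embryos. The anterior against posterior difference of HmgD was -0.0028 in TruSeq embryos.

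Counts of genes called moved by more than 1.5 times as follows. For bcd RNAi against hb RNAi there were 215 with TPM and 174 without a filter, for bcd RNAi against 2.4x bcd at cycle 13 there were 4075 with TPM, and for zld there were 1314 without T. delbruckii carrier embryos. Anterior against posterior counts were 214 with TPM, 123 in TruSeq, 11 in SMARTseq2, 155 without terminal slices and 131 in 14D embryos. Ends against middle counts were 59 with TPM, 73 with a pseudocount of 0.1, 84 without a filter, 20 in TruSeq, 9 in SMARTseq2, 38 without terminal slices and 24 in 14D embryos. The kit fold of HmgZ at cycle 13 was 0.331 from medians over slices, and that of Dsp1 at 14D was 1.80 with TPM.

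Leaving out 1 embryo at a time gave these ranges of genes called. They were 378 (without 2.4x bcd 14D replicate 1) to 2334 (without hb RNAi 14D replicate 1) for bcd RNAi against 2.4x bcd at 14D, and 992 (without 2.4x bcd 13 replicate 1) to 3085 at cycle 13. They were 16 (without bcd RNAi 14D replicate 1) to 1605 (without hb RNAi 14D replicate 1) for bcd RNAi against hb RNAi, and 49 (without 2.4x bcd 14D replicate 2) to 1066 (without hb RNAi 14D replicate 2) for hb RNAi against 2.4x bcd. They were 1305 (without zld 14B) to 2536 for zld, 260 (without zld 14B) to 487 along the axis and 83 (without wild type 14C) to 217 (without wild type 13) for ends against middle. Where a group was left with 1 embryo, that embryo was assumed to vary like the other groups. The kit fold of HmgZ ran from 0.566 to 2.26 at cycle 13, the highest without zld 13 replicate 2, and from 22.1 to 62.0 at 14D.

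The same omissions took HmgZ between -0.28 and 0.21 and Dsp1 between -0.26 and 0.10 in bcd RNAi against 2.4x bcd, at 14D and 13. HmgD ran from -0.15 to 0.69 in hb RNAi against 2.4x bcd, from -0.10 to 0.034 in zld and from -0.0029 to 0.040 along the axis. Dsp1 ran from -0.076 to 0.068 in zld, and HmgZ from -0.11 to 0.0015 between ends and middle. HmgZ passed in bcd RNAi against hb RNAi without hb RNAi 13 replicate 1 or 14D replicate 2 (limma adjusted p 0.0485 and 0.0469), in hb RNAi against 2.4x bcd without the latter (0.0162), and in zld without the cycle 11 embryo of either group or zld 13 replicate 1 (0.0345, 0.0345 and 0.0323).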
